A study of Mus musculus with 21 samples.

Results

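The Polycomb complex genes described here are 32 genes of the deposited count table, out of 39396 in all, that encode subunits of Polycomb repressive complex 1 (PRC1) or 2 (PRC2). They were chosen by gene symbol. All 32 were found, and all 32 passed the filter on low counts. They fall into 6 genes of the PRC2 core, 5 PRC2 accessory genes, 8 RING and PCGF genes of PRC1, 9 genes of canonical PRC1 and 4 of variant PRC1. Expression was measured by RNA sequencing in 21 libraries of mouse pluripotent cells, 3 for each of 7 groups. Embryonic stem cells (mESCs) of the A2 and D3 lines were sampled in the ground state, in fetal bovine serum with 1000 U/mL leukaemia inhibitory factor (LIF), beta-mercaptoethanol, antibiotics and 2i, which blocks the kinases MEK and GSK3. Naive mESCs of each line had spent 4 days without 2i. EPL (early primitive ectoderm-like) cells of each line had spent 4 days in serum medium with LIF at 330 U/mL and L-proline at 400 uM, listed without 2i. EpiSCs (epiblast stem cells) exist in A2 alone. They were recovered after A2 cells had been placed in a pseudopregnant mouse, and were kept in serum replacement with activin A and bFGF, so medium, growth factors and passage through an embryo differ together from the mESC groups. The labels name no altered gene in any group. EPL differed from naive cultures in LIF dose and proline at the same time. The labels do not tie the 3 libraries of a group to separate cultures, so the p-values measure the spread between these libraries, which may be technical.

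PRC2 methylates a lysine in the tail of histone H3, and PRC1 attaches ubiquitin to histone H2A. Canonical PRC1 reads the PRC2 mark through a CBX protein and compacts chromatin through PHC proteins, while variant PRC1 carries RYBP or YAF2 in place of CBX and finds its targets in other ways. In pluripotent cells both complexes sit on the CpG islands of silent developmental genes, and many subunits have paralogs that replace each other in different cell states.

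Promoters of 4 members are shown first as examples. Of these, Suz12, Bmi1 and Cbx8 fell and Phf19 rose in both lines when 2i was removed, as other members also did. The sequences are from RefSeq on GRCm38.p6, hold up to 250 bases upstream of the gene start, and are written 5′ to 3′ on the gene's strand. Capitals mark matches, on either strand, to 3 motifs that were searched: the TCF/LEF core CTTTGA, the E-box CACGTG and the E2F-like GCGGGAA.
Suz12: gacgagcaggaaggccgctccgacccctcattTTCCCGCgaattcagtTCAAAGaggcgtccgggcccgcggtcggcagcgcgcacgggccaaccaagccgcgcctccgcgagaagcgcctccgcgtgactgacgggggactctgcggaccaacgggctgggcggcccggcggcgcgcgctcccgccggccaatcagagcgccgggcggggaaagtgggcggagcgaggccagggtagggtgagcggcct
Bmi1: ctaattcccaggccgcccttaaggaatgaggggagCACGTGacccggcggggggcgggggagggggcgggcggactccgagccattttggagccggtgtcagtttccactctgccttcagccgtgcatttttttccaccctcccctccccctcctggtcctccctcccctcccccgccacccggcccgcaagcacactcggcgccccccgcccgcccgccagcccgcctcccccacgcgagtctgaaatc
Cbx8: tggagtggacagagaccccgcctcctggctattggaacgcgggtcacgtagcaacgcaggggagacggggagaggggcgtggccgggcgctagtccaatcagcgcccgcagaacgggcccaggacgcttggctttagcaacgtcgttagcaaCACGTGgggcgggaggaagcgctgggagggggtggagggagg
Phf19: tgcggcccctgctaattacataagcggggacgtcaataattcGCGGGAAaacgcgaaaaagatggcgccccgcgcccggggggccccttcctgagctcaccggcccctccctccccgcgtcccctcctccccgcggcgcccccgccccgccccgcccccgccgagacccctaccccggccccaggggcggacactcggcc
The stretches lie at chr11:79992856-79993105 on the plus strand (Suz12), chr2:18676768-18677017 on the plus strand (Bmi1), chr11:119040970-119041163 on the minus strand (Cbx8) and chr2:34914027-34914226 on the minus strand (Phf19). Suz12 held a TCF/LEF core and an E2F-like match, whose first bases were at -202 and -218 from the RefSeq start. Bmi1 held an E-box at -215, Cbx8 an E-box at -98 and Phf19 an E2F-like match at -208. The promoter of Jarid2, which also rose in both lines (1.08 in A2 and 1.11 in D3), held no match. Its RefSeq start is 1300 bases from the GENCODE start, so that window lies inside the annotated gene. At the RefSeq starts used, the 4 promoters printed thus do not stand for all members that changed. Of the 32 members, 28 had an entry in the RefSeq table. The starts used for Cbx7 and Scml2 were 38473 and 45557 bases from their GENCODE starts. Among these 28, the E-box was in 7 promoters (25.0%), against 6.02% of all 32851 promoters of the same length, the E2F-like letters in 3 (10.7% against 3.82%) and the TCF/LEF core in 2 (7.14% against 13.8%). For each member only the RefSeq start nearest the GENCODE start was used. The 32851 promoters count every start of a gene, so the shares of members and of all promoters are in unlike units. The 28 also differed in base composition, with a median GC content of 66.2% against 52.4% and a median of 21.5 CpG pairs against 6. These matches describe letters in a window and no binding was measured.

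Total counts per library were between 15320599 and 23490527, and the members together held 0.363% to 0.488% of them. Replicates of a group differed by more than counting noise in every pair. D3 naive replicate 2 and A2 EpiSC replicate 3 stood farthest from their group's other libraries over all genes, and the counts below are also given without them. Pluripotency genes (Pou5f1, Sox2, Nanog and Sall4) had counts in every library, but in EpiSC libraries 4 of 4 were called lower against ground and naive and 3 of 4 against EPL. Their sum there was 1001 to 1313 CPM, against at least 1809 CPM in every other library. Of 6 naive genes, 6 were lower in EpiSC libraries against ground and against naive, with a sum of 802 to 990 CPM against 4872 to 5244 CPM in A2 ground and 2745 to 3007 CPM in A2 naive libraries. Of 6 formative and primed genes, 4 were higher and 2 lower in EpiSC libraries, both against ground and against naive, with Fgf5 at 12.7 ± 5.1 CPM (SD, n = 3) and Pou3f1 at 19.7 ± 3.7 CPM. Their sum of 149 to 161 CPM was nevertheless below that of A2 ground libraries (186 to 206 CPM), where Dnmt3b and Fst were higher. Against EPL, 3 genes of the naive list and 3 of the formative and primed list were higher and 3 of each were lower.

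Genes of other cell types also differed. The EpiSC libraries carried 10 of 10 fibroblast or feeder genes at raised levels (called higher against ground, naive and EPL), with a sum of 2212 to 2810 CPM against 7.99 to 22.2 CPM over the 18 other libraries, where Dcn, Lum, Postn, Col3a1 or Twist2 were at 0 counts in some groups. Of 8 primitive endoderm genes, 8 were called higher, with a sum of 138 to 190 CPM against 4.13 to 40.2 CPM elsewhere. Of 4 germ-line genes, 4 were higher in EpiSC against ground, 1 was higher and 2 lower against naive, and 2 were higher and 2 lower against EPL, with a sum of 154 to 173 CPM against at most 56.1 CPM elsewhere. Of 6 neural genes, 5 were tested, and 5 were higher against ground, 3 higher and 2 lower against naive, and 2 higher and 3 lower against EPL, with a sum of 311 to 452 CPM against at most 299.6 CPM elsewhere. The 6 trophoblast genes summed to 53.7 to 56.9 CPM in EpiSC and 51.2 to 56.4 CPM in A2 ground libraries. The pluripotency, fibroblast, primitive endoderm, germ-line and neural values stand beside every EpiSC result below, and their part in those results was not tested. In such bulk libraries, fewer cells of a type and less RNA per cell cannot be told apart.

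Levels are CPM (counts relative to the library's total after TMM scaling), and differences are log2 differences with their standard error from edgeR's quasi-likelihood test, called at a Benjamini-Hochberg adjusted p below 0.05 over 16575 genes. Between naive and ground cells, with A2 and D3 weighted equally, 8 members rose, 17 fell and 7 were not called. Of all genes tested, 63.5% were called there, 31.7% higher and 31.8% lower. The median log2 difference of the members was -0.11, against 0.01 over all genes. With RLE size factors or total-count scaling, the falls of Rnf2, Pcgf2 and Pcgf6 were not called and Ezh1 was called higher (0.13 and 0.16). Total-count scaling also called Rbbp7 higher (0.12). Of all genes, 5639 were then higher and 4950 lower with RLE, and 5973 and 4594 with the total count. Leaving out a library cost the Rnf2 call in 6 fits and that of Pcgf6 in 9. EPL against ground gave 12 higher and 17 lower members, where 66.3% of all genes were called, 33.1% higher and 33.2% lower. EPL against naive gave 9 higher and 9 lower, where 51.2% of all genes were called, 27.1% higher and 24.1% lower. In A2, EpiSC against ground gave 10 higher and 15 lower members, where 73.2% of all genes were called, 39.1% higher and 34.1% lower. EpiSC against naive gave 11 and 15, where 70.3% of all genes were called, 39.1% higher and 31.2% lower. EpiSC against EPL gave 10 and 16, where 70.4% were called, 39.1% higher and 31.3% lower. Comparisons that share a group share its libraries, and each is read on its own. Changes of at least 2-fold were called for 5 members in naive against ground (20.9% of all genes), 6 in EPL against ground (24.8%) and 0 in EPL against naive (9.79%). In EpiSC against ground, naive and EPL they were called for 7, 10 and 10 members (33.7%, 29.4% and 29.8% of all genes). Without D3 naive replicate 2, 9 members rose and 17 fell between naive and ground. Without A2 EpiSC replicate 3 the EpiSC counts were 10 and 15, 12 and 14, and 10 and 16.

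Scaling to the total count, in place of TMM, moved the median log2 difference of all genes from 0.04 to 0.30 in EpiSC against ground, from 0.08 to 0.26 against naive and from 0.07 to 0.27 against EPL. The genes called higher and lower were then 8280 and 3658 against ground in place of 6488 and 5648, 7838 and 3854 against naive in place of 6476 and 5179, and 7966 and 3638 against EPL in place of 6475 and 5192. The members called higher and lower became 14 and 11 against ground, 13 and 12 against naive, and 13 and 13 against EPL. EpiSC differences below are those with TMM. Members called in either fit whose direction turned with the total count are named with their values. Members called in neither fit could also turn and are not all named. Against EPL, total-count scaling kept the calls but cut the log2 differences of Rbbp4 to -0.32, Mtf2 to -0.34, Rnf2 to -0.17, Pcgf2 to -0.38 and Kdm2b to -0.34, and against ground it raised that of Ring1 to 0.57.

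**Figure D1:**
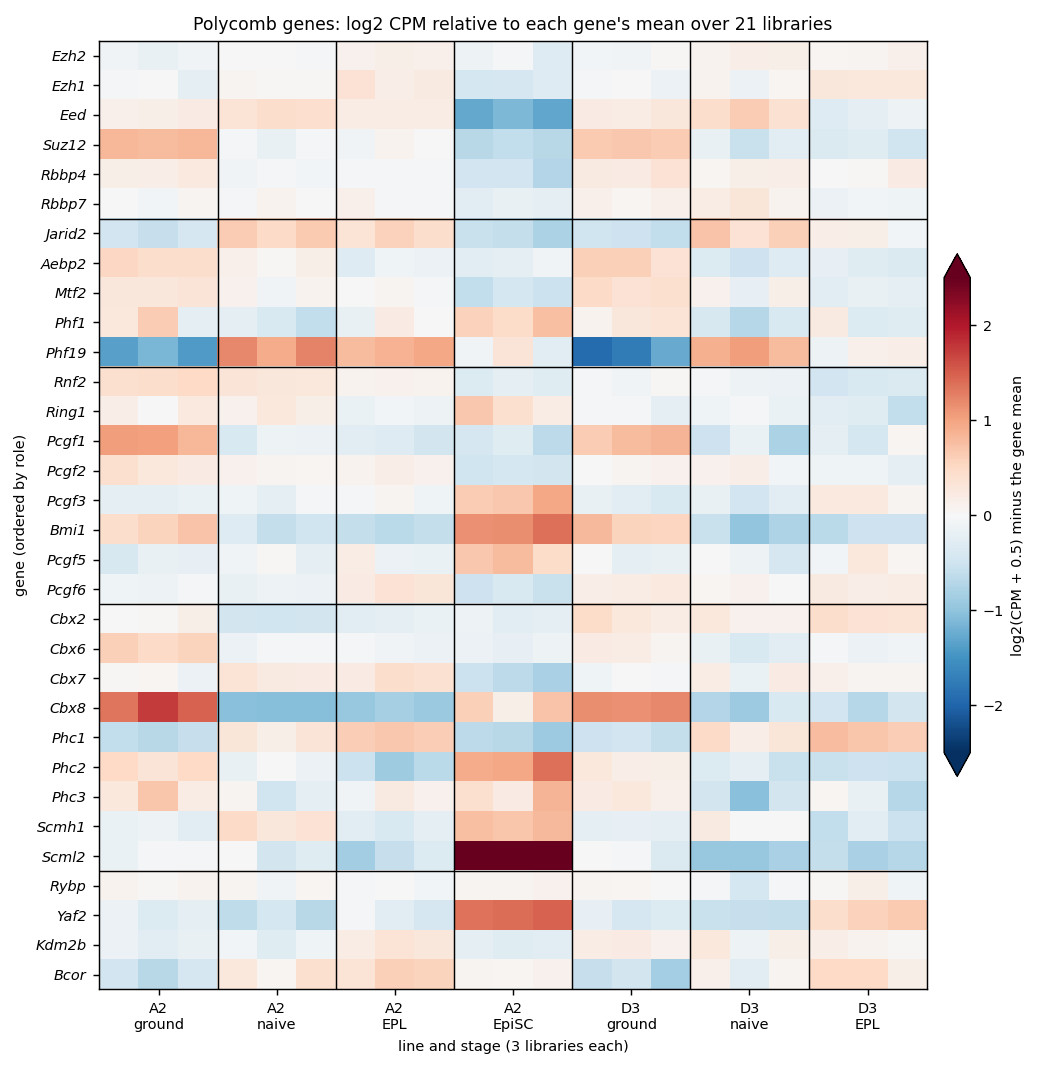
Each cell gives log2(CPM + 0.5) of a Polycomb gene (vertical axis, in order of role) in one of 21 libraries (horizontal axis, 3 per line and stage) less that gene's mean over all libraries; the colour scale is capped at its ends. The EpiSC columns are high for Scml2, Yaf2 and Bmi1 and low for Eed, and Phf19 is low and Cbx8 high in the ground columns of both lines.

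Over the 7 group means, 17 of the 32 members varied more than 2-fold and 4 less than 1.5-fold. Without the EpiSC group, 11 varied more than 2-fold. The widest ranges were those of Scml2 (14.2-fold), Cbx8 (12.4-fold) and Phf19 (8.40-fold), and the narrowest was that of Rybp (1.19-fold). The EpiSC group held the highest mean of 11 members and the lowest of 13. The same counts over all genes were not made, so they do not set the members apart. In EpiSC against ground, 73.2% of all genes were called, and 33.7% were called with at least a 2-fold change. Per kilobase of exon, which allows levels of different genes to be set side by side, the mean over the groups was highest for Rbbp7 (119.8 CPM per kb), Phc1 (103 CPM per kb) and Rbbp4 (65.0 CPM per kb). It was lowest for Phc3 (1.01 CPM per kb), Cbx8 (0.511 CPM per kb) and Pcgf5 (0.504 CPM per kb). These lengths join all annotated exons of a gene, so a gene with long rare isoforms reads low on this scale.

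In the PRC2 core, Suz12 fell most on removal of 2i. With TMM, every core gene had its lowest group mean in EpiSC libraries. The range over the groups was widest for Eed (3.29-fold) and Suz12 (2.79-fold). Suz12 (ENSMUSG00000017548, chr11:79993106-80034123, GRCm38), the scaffold that holds the complex together, stood at 511, 492 and 506 CPM in A2 ground, 279, 252 and 278 CPM in naive, 267, 302 and 289 CPM in EPL and 177, 186 and 178 CPM in EpiSC libraries. Its D3 levels were 451, 453 and 445 CPM in ground, 251, 195 and 236 CPM in naive and 224, 232 and 201 CPM in EPL libraries. Every ground library was above every naive, EPL and EpiSC library in both lines, and the naive and EPL libraries overlapped. Suz12 was 1.92-fold lower in naive than in ground cells, a log2 difference of -0.94 ± 0.06 (SE; adjusted p = 1.32e-12), and 1.90-fold lower in EPL cells, a log2 difference of -0.93 ± 0.06 (SE; adjusted p = 1.19e-12). Between EPL and naive cells the difference of 0.01 ± 0.06 (SE; adjusted p = 0.855) was not called. EpiSC libraries were lower again, with a difference of -0.67 ± 0.08 against EPL (adjusted p = 1.28e-07).

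Eed (ENSMUSG00000030619, chr7:89954654-89980983), which binds methylated histone H3 and stimulates the enzyme, stood at 234, 239 and 247 CPM in A2 ground, 270.5, 292 and 286 CPM in naive, 244, 244 and 245 CPM in EPL and 88.4, 98.6 and 87.1 CPM in EpiSC libraries. In the other line Eed was at 247, 244 and 262 CPM in ground, 291, 331 and 280.1 CPM in naive and 172, 181 and 196 CPM in EPL libraries. The EpiSC libraries held less than any mESC or EPL library, and D3 EPL libraries were below all other D3 libraries. Eed rose slightly between ground and naive cells, by 0.25 ± 0.05 (SE; adjusted p = 0.000125), and was 2.67-fold lower in EpiSC than in EPL libraries, a log2 difference of -1.42 ± 0.07 (SE; adjusted p = 1.06e-13). Against ground the EpiSC difference was -1.39 ± 0.07 (SE; adjusted p = 8.32e-14).

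Ezh2 and Ezh1 encode the alternative methyltransferase subunits. Their group means varied little, from 147 to 181 CPM for Ezh2 and from 21.3 to 34.0 CPM for Ezh1. Ezh2 made up between 85.1% and 88.4% of the summed CPM per kb of the pair in the 7 groups. Ezh2 rose by 0.14 ± 0.05 (SE; adjusted p = 0.00855) between ground and naive cells and by 0.19 ± 0.05 (SE; adjusted p = 0.00113) between ground and EPL cells. The first was not called in A2 alone (0.11) and the second not in D3 alone (0.12). Ezh1 rose by 0.25 ± 0.06 (SE; adjusted p = 0.000975) between naive and EPL cells and fell in EpiSC against EPL cells, with a log2 difference of -0.66 ± 0.08 (SE; adjusted p = 1.9e-07). Ezh2 also fell in EpiSC against EPL cells, by 0.29 ± 0.06 (adjusted p = 0.00044), but with scaling to the total count this call was lost (adjusted p = 0.229), and its differences from ground and naive took the opposite sign (0.22 and 0.033).

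Rbbp4 and Rbbp7, histone-binding chaperones shared with other chromatin complexes, were the most abundant core genes per kilobase together with Suz12. Rbbp4 fell by 0.20 ± 0.05 between ground and naive cells (adjusted p = 0.00181; -0.14 and not called in D3 alone) and was lower in EpiSC than in EPL libraries, with a log2 difference of -0.52 ± 0.07 (adjusted p = 1.24e-06). Rbbp7 was at 346, 333 and 365 CPM in A2 ground, 339.6, 369 and 343 CPM in naive, 377, 339.7 and 339 CPM in EPL and 287, 305 and 298 CPM in EpiSC libraries. Its D3 levels were 377, 358 and 379.5 CPM in ground, 396, 429 and 371 CPM in naive and 313, 329 and 323 CPM in EPL libraries. The Rbbp7 libraries of A2 mESC and EPL groups overlapped, and all EpiSC libraries were lower. Its EpiSC differences were called, -0.23, -0.24 and -0.25 against ground, naive and EPL, but with scaling to the total count none of the 3 was, and the difference from ground became 0.032. Of the 6 core genes, 0 were called higher in EpiSC against ground and 5 lower, and 6 of 6 were lower against naive and against EPL. Of all genes, 34.1%, 31.2% and 31.3% were called lower in the 3 comparisons, and 39.1% higher in each. With scaling to the total count, Ezh2 turned higher against ground, and 3, 4 and 4 core genes were lower in the 3 comparisons. The median log2 differences of the core genes were -0.52, -0.47 and -0.59 with TMM, where those of all genes were 0.04, 0.08 and 0.07. The fibroblast list sum of those libraries, 2212 to 2810 CPM, stands beside these counts, and its part in them was not tested.

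Among the PRC2 accessory genes, Phf19 and Jarid2 rose and Aebp2, Mtf2 and Phf1 fell when 2i was removed. Phf19 (ENSMUSG00000026873, chr2:34893757-34914026) encodes a Polycomb-like protein, and such proteins bind CpG-rich DNA and bring PRC2 to it. Phf19 was at 2.18, 2.60 and 2.07 CPM in A2 ground, 15.4, 12.5 and 15.8 CPM in naive, 11.4, 12.1 and 13 CPM in EPL and 5.93, 8.10 and 5.21 CPM in EpiSC libraries. D3 libraries held Phf19 at 1.32, 1.53 and 2.35 CPM in ground, 12.3, 13.7 and 11.4 CPM in naive and 5.77, 7.06 and 7.24 CPM in EPL libraries. No ground library of either line overlapped a naive, EPL or EpiSC library, and EpiSC libraries lay between the ground and EPL libraries of A2. Phf19 was 6.79-fold higher in naive than in ground cells, a log2 difference of 2.76 ± 0.13 (SE; adjusted p = 3.22e-14). It fell from naive to EPL cells, with a log2 difference of -0.57 ± 0.11 (SE; adjusted p = 0.000175) that was -0.89 in D3 alone and -0.26, not called, in A2 alone, and was 2.82-fold higher in EpiSC than in ground libraries. Its share of the summed CPM per kb of the 3 Polycomb-like genes went from 0.690% ± 0.081 (SD, n = 3) in A2 ground to 5.07% ± 0.3 in A2 naive libraries.

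Mtf2, the most abundant Polycomb-like gene, was at 350.1, 351 and 360.5 CPM in A2 ground, 311, 272 and 308 CPM in naive, 288, 304 and 284 CPM in EPL and 189, 213 and 198 CPM in EpiSC libraries. The D3 levels of Mtf2 were 401, 372 and 384 CPM in ground, 311, 249.5 and 319 CPM in naive and 239.5, 253 and 243 CPM in EPL libraries. Ground libraries were above naive and EPL libraries in both lines, and EpiSC libraries were below all others. Mtf2 fell by 0.32 ± 0.06 between ground and naive cells (adjusted p = 2.32e-05) and by 0.55 ± 0.08 between EPL and EpiSC libraries (adjusted p = 2.08e-06). The ratio of Mtf2 to Phf19 was 7.09-fold lower in naive than in ground cells (exact p = 0.005, adjusted p = 0.0109, exact two-sided permutation test of log2 ratios with 0.5 CPM added, within lines, n = 6 against 6).

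Phf1, the remaining Polycomb-like gene, was at 10.5, 13.7 and 7.28 CPM in A2 ground, 7.27, 6.52 and 5.46 CPM in naive, 7.50, 9.99 and 8.57 CPM in EPL and 13.1, 12 and 14.9 CPM in EpiSC libraries. For Phf1 the D3 values were 9.17, 10.7 and 11.2 CPM in ground, 6.40, 5.10 and 6.54 CPM in naive and 10.2, 6.68 and 6.94 CPM in EPL libraries. The lowest A2 ground library was level with the highest A2 naive library, and EpiSC libraries were above all naive and EPL libraries. Phf1 was lower in naive than in ground cells by a log2 difference of -0.75 ± 0.14 (SE; adjusted p = 6.19e-05), and higher in EpiSC than in naive libraries by 1.06 ± 0.19 (SE; adjusted p = 3.55e-05). Its exons overlap those of Cuta on the opposite strand over 39.3% of their length, and the kit does not mark strand, so reads of the 2 genes cannot be told apart there.

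Jarid2 (ENSMUSG00000038518, chr13:44729474-44921643), a DNA-binding cofactor that stimulates PRC2, was at 338, 314 and 349.9 CPM in A2 ground, 731, 651 and 740.4 CPM in naive, 591, 696 and 632 CPM in EPL and 318, 311 and 270.1 CPM in EpiSC libraries. In the D3 line Jarid2 stood at 332, 327 and 306 CPM in ground, 769, 603 and 704 CPM in naive and 523, 518 and 448 CPM in EPL libraries. Naive and EPL libraries of both lines were above all ground libraries, and EpiSC libraries were near the level of ground. Jarid2 was 2.13-fold higher in naive than in ground cells, a log2 difference of 1.09 ± 0.07 (SE; adjusted p = 1.39e-12), and 2.14-fold lower in EpiSC than in EPL libraries, a log2 difference of -1.10 ± 0.09 (SE; adjusted p = 5.5e-10). The EpiSC difference from ground, -0.16 ± 0.09 (SE; adjusted p = 0.123), was not called.

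Aebp2, a zinc-finger protein found in the same form of PRC2 as JARID2, went the other way. It was at 172, 162 and 162 CPM in A2 ground, 132, 122 and 133 CPM in naive, 96, 110.5 and 108 CPM in EPL and 98.5, 101 and 113 CPM in EpiSC libraries. Aebp2 in D3 cells was at 183, 181 and 155 CPM in ground, 94.4, 83.1 and 96.4 CPM in naive and 104, 96.5 and 93.4 CPM in EPL libraries. Ground libraries were above all others in both lines. Aebp2 fell by 0.64 ± 0.06 between ground and naive cells (adjusted p = 1.19e-09). The ratio of Jarid2 to Aebp2 was 3.31-fold higher in naive than in ground cells (exact p = 0.005, adjusted p = 0.0109, exact permutation test, n = 6 against 6). In EpiSC libraries, with a fibroblast list sum of 2212 to 2810 CPM, 3 of the 5 accessory genes were lower than in EPL and 1 was higher. Of all genes, 31.3% were called lower and 39.1% higher there. Aebp2, with a difference of -0.01 (adjusted p = 0.911), was not called.

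**Figure D2:**
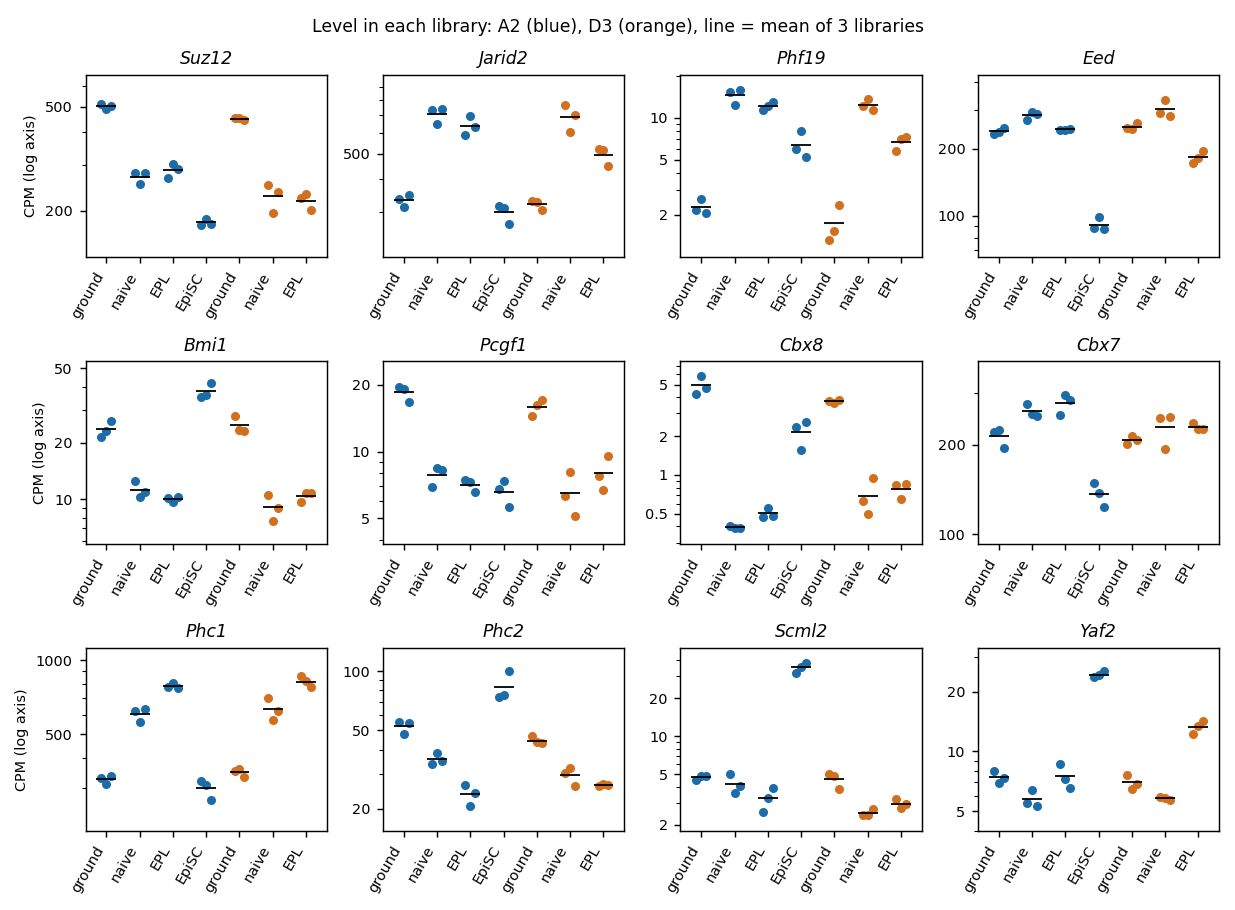
Level of 12 Polycomb genes in every library, in CPM on a log axis, for A2 (blue) and D3 (orange); each point is a library and each line the mean of 3. Suz12, Bmi1, Pcgf1 and Cbx8 are higher in ground than in naive libraries of both lines, Jarid2, Phf19 and Phc1 are lower, and Scml2 and Yaf2 are highest in EpiSC libraries.

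The RING and PCGF genes form the catalytic pair common to all PRC1 forms: RNF2 and RING1 are ubiquitin ligases, and the PCGF partner defines the form. Rnf2, the main ligase gene here, was at 227, 233 and 243 CPM in A2 ground, 216, 209 and 207 CPM in naive, 182, 185 and 184 CPM in EPL and 136, 148 and 140.5 CPM in EpiSC libraries. D3 libraries held Rnf2 at 169, 163 and 175 CPM in ground, 169, 159 and 156 CPM in naive and 123.1, 132 and 134 CPM in EPL libraries. The D3 libraries were below the A2 libraries of the same stage throughout, and EPL libraries were below ground and naive libraries in each line. Rnf2 fell by 0.36 ± 0.04 between ground and EPL cells (adjusted p = 5.08e-08) and was lower in EpiSC than in EPL libraries, with a log2 difference of -0.38 ± 0.06 (adjusted p = 5.32e-06). Ring1 was at 11.3, 9.89 and 11.8 CPM in A2 ground, 10.7, 12.1 and 11.1 CPM in naive, 8.80, 9.55 and 9.11 CPM in EPL and 16.2, 13.3 and 11.3 CPM in EpiSC libraries. The D3 levels of Ring1 were 9.78, 9.67 and 8.43 CPM in ground, 9.20, 9.81 and 8.81 CPM in naive and 8.17, 7.97 and 6.38 CPM in EPL libraries. Its EpiSC libraries ranged widely and overlapped the ground libraries. Ring1 was higher in EpiSC than in EPL libraries by 0.57 ± 0.12 (SE; adjusted p = 0.000342). The call against ground, 0.30 ± 0.12 (adjusted p = 0.0292), was lost without A2 ground replicate 2 (0.24), EpiSC replicate 1 (0.15) or EpiSC replicate 2 (0.31). Rnf2 held 89.1% of the summed CPM per kb of the pair in EpiSC and 94.4% in A2 ground libraries.

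Bmi1 (ENSMUSG00000026739, chr2:18677018-18686629) and Pcgf2 encode the PCGF proteins of canonical PRC1. Bmi1 was at 21.6, 23.3 and 26 CPM in A2 ground, 12.5, 10.3 and 10.9 CPM in naive, 10.2, 9.66 and 10.3 CPM in EPL and 35.3, 35.9 and 41.9 CPM in EpiSC libraries. For Bmi1 the D3 values were 28, 23.3 and 23.2 CPM in ground, 10.6, 7.70 and 9.03 CPM in naive and 9.66, 10.8 and 10.9 CPM in EPL libraries. Ground libraries were above every naive and EPL library, and EpiSC libraries were above all others. Bmi1 was 2.40-fold lower in naive than in ground cells, a log2 difference of -1.26 ± 0.08 (SE; adjusted p = 6.9e-12), and 3.75-fold higher in EpiSC than in EPL libraries, a log2 difference of 1.91 ± 0.12 (SE; adjusted p = 2.26e-12). Pcgf2 had means from 84.2 to 114 CPM over the 6 mESC and EPL groups, and was lower in EpiSC than in EPL libraries, with a log2 difference of -0.59 ± 0.07 (adjusted p = 6e-08). The small fall of Pcgf2 between ground and naive cells, -0.11 ± 0.05 (SE; adjusted p = 0.0442), was lost in 11 of the fits that left out a library, with differences from -0.11 to -0.06 there, in D3 alone, where it was 0.0042, and with RLE factors (-0.08), total-count scaling (-0.05), no filter (-0.09), the stricter filter (-0.10) and DESeq2 (-0.08). The ratio of Pcgf2 to Bmi1 was 2.16-fold higher in naive than in ground cells (exact p = 0.005, adjusted p = 0.0109, exact permutation test, n = 6 against 6). In EpiSC it was 5.42-fold lower than in EPL libraries, with no overlap of the 3 libraries of each group, where the exact test cannot go below 0.10.

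The other PCGF genes belong to variant complexes. Pcgf1 (ENSMUSG00000069678, chr6:83077869-83080855), the partner of KDM2B and BCOR, was at 19.6, 19.2 and 16.8 CPM in A2 ground, 6.92, 8.43 and 8.24 CPM in naive, 7.44, 7.26 and 6.58 CPM in EPL and 6.75, 7.39 and 5.63 CPM in EpiSC libraries. In the D3 line Pcgf1 stood at 14.5, 16.2 and 17 CPM in ground, 6.29, 8.09 and 5.10 CPM in naive and 7.78, 6.68 and 9.55 CPM in EPL libraries. Ground libraries were above all others, and naive, EPL and EpiSC libraries overlapped. Pcgf1 was 2.40-fold lower in naive than in ground cells, a log2 difference of -1.26 ± 0.10 (SE; adjusted p = 4.62e-10), and lower in EpiSC than in ground libraries, with a log2 difference of -1.49 ± 0.15 (SE; adjusted p = 5.4e-09). Pcgf6, which works with MGA and L3MBTL2 at germ-line genes, was at 67.2, 66.7 and 71 CPM in A2 ground, 63.9, 66.5 and 65.4 CPM in naive, 83.7, 93.7 and 89.9 CPM in EPL and 51, 56.2 and 49.1 CPM in EpiSC libraries. Pcgf6 in D3 cells was at 81.3, 83.4 and 86.9 CPM in ground, 75, 78.2 and 73.6 CPM in naive and 85, 82 and 83.2 CPM in EPL libraries. A2 EPL libraries were above all A2 libraries, and EpiSC libraries were below them. Pcgf6 rose by 0.30 ± 0.04 between naive and EPL cells (adjusted p = 9.43e-06; 0.45 in A2 alone and 0.14, not called, in D3 alone) and was lower in EpiSC than in EPL libraries, with a log2 difference of -0.77 ± 0.06 (adjusted p = 3.52e-10).

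Pcgf3 and Pcgf5, close paralogs whose complexes deposit ubiquitin broadly, were higher in EpiSC libraries. Pcgf3 was at 76.3, 76.3 and 80.6 CPM in A2 ground, 83.4, 76.9 and 88.9 CPM in naive, 88.3, 95.1 and 83.9 CPM in EPL and 139.8, 144 and 176 CPM in EpiSC libraries. D3 libraries held Pcgf3 at 79.4, 75 and 69.7 CPM in ground, 79.9, 64.8 and 75.1 CPM in naive and 107, 108 and 95.2 CPM in EPL libraries. The EpiSC libraries were above all others and D3 EPL libraries above all other D3 libraries. Pcgf3 was higher in EpiSC than in EPL libraries by 0.78 ± 0.09 (SE; adjusted p = 1.03e-07), and Pcgf5 by 0.72 ± 0.15 (SE; adjusted p = 0.000147). Pcgf5 was low throughout, from 5.09 to 6.62 CPM over the mESC and EPL group means and at 10.00 ± 1.2 CPM (SD, n = 3) in EpiSC. Of the 8 RING and PCGF genes, EpiSC against EPL gave 4 higher and 3 lower (39.1% and 31.3% of all genes), beside a fibroblast list sum of 2212 to 2810 CPM in those EpiSC libraries. Bmi1 took 15.8% ± 1 (SD, n = 3) of the summed PCGF CPM per kb there against 4.01% ± 0.26 in A2 EPL, Pcgf3 took 26.8% ± 2.6 against 14.8% ± 0.55, and Pcgf2 31.96% ± 1 against 45.5% ± 0.27.

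**Figure D3:**
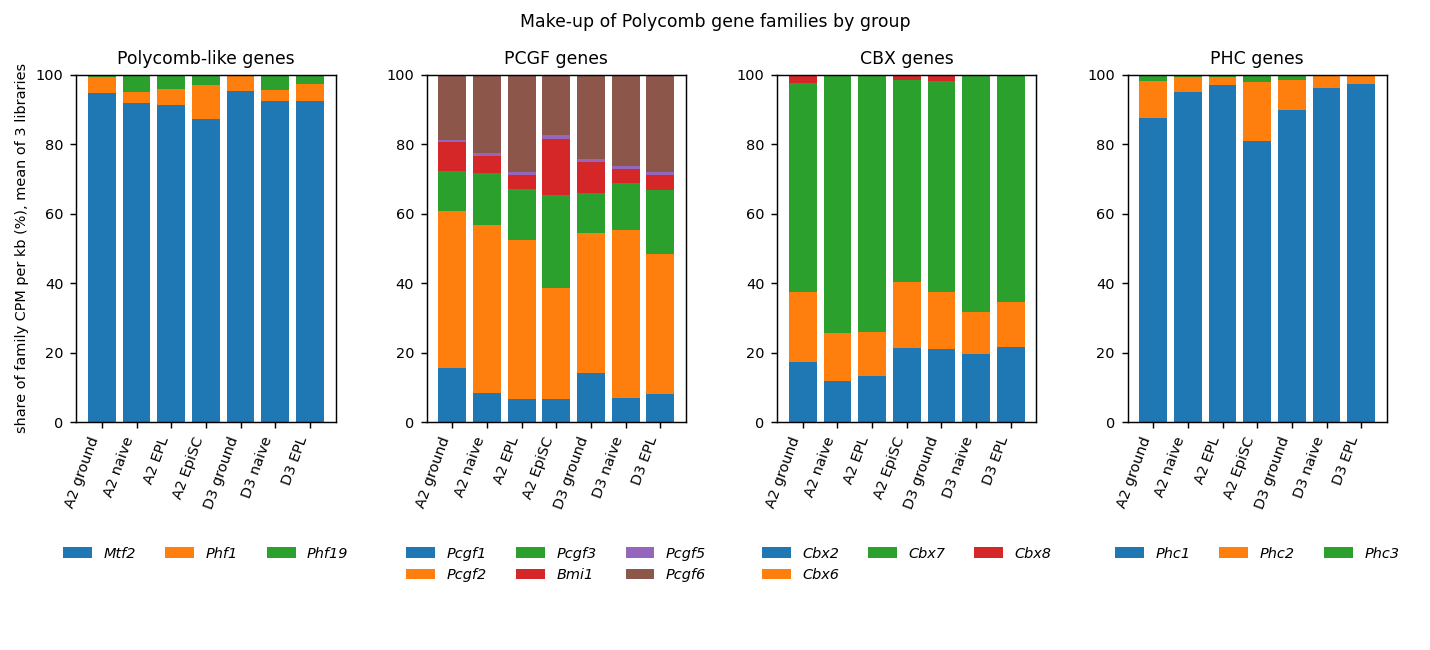
Stacked bars give each gene's share, in percent, of the summed CPM per kb of its family (vertical axis) in the 7 groups (horizontal axis), as the mean of 3 libraries. Phc1 and Cbx7 take larger shares in naive and EPL than in ground groups, and Bmi1, Pcgf3 and Phc2 take their largest shares in the EpiSC group.

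In canonical PRC1, Cbx8 and Phc2 fell and Phc1 rose between ground and naive cells, and 9 of 9 genes were called there, 3 higher and 6 lower, where 63.5% of all genes were called, 31.7% higher and 31.8% lower. CBX proteins hold the chromodomain that reads the PRC2 mark. Cbx8 (ENSMUSG00000025578, chr11:119036305-119040969), given by library here although its low level puts it outside the rule for named genes, was at 4.21, 5.80 and 4.73 CPM in A2 ground, 0.404, 0.392 and 0.390 CPM in naive, 0.472, 0.558 and 0.483 CPM in EPL and 2.34, 1.56 and 2.58 CPM in EpiSC libraries. The D3 levels of Cbx8 were 3.70, 3.63 and 3.78 CPM in ground, 0.629, 0.499 and 0.942 CPM in naive and 0.843, 0.646 and 0.856 CPM in EPL libraries. Ground libraries of both lines were far above naive and EPL libraries, and EpiSC libraries lay in between. Cbx8 was 8.07-fold lower in naive than in ground cells, a log2 difference of -3.01 ± 0.17 (SE; adjusted p = 8.1e-13), and 4.22-fold higher in EpiSC than in EPL libraries, a log2 difference of 2.08 ± 0.27 (SE; adjusted p = 4.03e-07).

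Cbx7, the main CBX gene of these cells, was also added after its values were seen. It was at 222, 225 and 196 CPM in A2 ground, 274, 255 and 251 CPM in naive, 251, 294 and 283 CPM in EPL and 149, 137 and 124 CPM in EpiSC libraries. For Cbx7 the D3 values were 201, 215 and 209 CPM in ground, 246, 194 and 249 CPM in naive and 237, 227 and 227 CPM in EPL libraries. EpiSC libraries were below all others, while ground and naive libraries overlapped in D3. Cbx7 rose by 0.21 ± 0.06 between ground and naive cells (adjusted p = 0.00542; 0.14 and not called in D3 alone) and was 2.02-fold lower in EpiSC than in EPL libraries, a log2 difference of -1.02 ± 0.09 (SE; adjusted p = 1.2e-09). Of the summed CPM per kb of the 4 CBX members, Cbx7 held 59.98% ± 2.5 (SD, n = 3) in A2 ground, 74.3% ± 1.3 in A2 naive and 58.1% ± 2.2 in EpiSC libraries.

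Cbx2 was at 38.8, 39.1 and 42.6 CPM in A2 ground, 27.7, 26.9 and 27.8 CPM in naive, 31.8, 32.4 and 34.1 CPM in EPL and 35.1, 31.2 and 32.2 CPM in EpiSC libraries. In the D3 line Cbx2 stood at 52.9, 46.3 and 43.6 CPM in ground, 46.1, 41.6 and 41.6 CPM in naive and 52.3, 49.5 and 48.9 CPM in EPL libraries. A2 ground libraries were above all other A2 libraries, and D3 libraries were above A2 libraries of the same stage. With scaling to the total count, the Cbx2 difference of EpiSC from ground was -0.03 and no longer called. That of EpiSC from EPL was 0.21 and became called. Cbx2 fell by 0.35 ± 0.05 between ground and naive cells (adjusted p = 7.72e-06), with -0.55 in A2 alone and -0.14, not called, in D3 alone. Cbx6 was at 122.6, 113 and 120.3 CPM in A2 ground, 73.1, 79.5 and 79.5 CPM in naive, 79.7, 76.3 and 73.1 CPM in EPL and 73.2, 70.2 and 74.6 CPM in EpiSC libraries. Cbx6 in D3 cells was at 93.8, 92.7 and 85 CPM in ground, 71.8, 62.7 and 67.1 CPM in naive and 78.5, 73.6 and 76.5 CPM in EPL libraries. Ground libraries were above all others in each line, and Cbx6 fell by 0.52 ± 0.05 between ground and naive cells (adjusted p = 1.34e-09). The ratio of Cbx6 to Cbx7 was 1.66-fold lower in naive than in ground cells (exact p = 0.005, adjusted p = 0.0109, exact permutation test, n = 6 against 6).

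PHC proteins join PRC1 particles through a SAM domain. Phc1 (ENSMUSG00000040669, chr6:122317731-122340561) was at 329.9, 313 and 336 CPM in A2 ground, 619.8, 558 and 631 CPM in naive, 777, 804 and 771 CPM in EPL and 321, 310.2 and 268 CPM in EpiSC libraries. D3 libraries held Phc1 at 353, 361 and 335 CPM in ground, 703, 569 and 620.5 CPM in naive and 861, 819 and 777 CPM in EPL libraries. Levels rose from ground to naive to EPL with no overlap between stages in either line, and EpiSC libraries were near the level of ground. Phc1 was 1.83-fold higher in naive than in ground cells, a log2 difference of 0.87 ± 0.06 (SE; adjusted p = 6.71e-12), higher again in EPL than in naive cells by 0.38 ± 0.06 (SE; adjusted p = 7.59e-06), and 2.62-fold lower in EpiSC than in EPL libraries, a log2 difference of -1.39 ± 0.08 (SE; adjusted p = 1.22e-12). Phc2 (ENSMUSG00000028796, chr4:128654702-128752881) ran the opposite course. It was at 54.9, 48.1 and 54.5 CPM in A2 ground, 33.8, 38.6 and 34.9 CPM in naive, 26.5, 20.6 and 23.96 CPM in EPL and 73.8, 75.3 and 100.4 CPM in EpiSC libraries. The D3 levels of Phc2 were 46.6, 43.5 and 42.9 CPM in ground, 30.4, 32.4 and 26 CPM in naive and 26, 26.8 and 26.4 CPM in EPL libraries. In A2 the 4 stages did not overlap, in the order EpiSC, ground, naive and EPL from high to low, and D3 naive and EPL libraries overlapped.

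Phc2 was 1.93-fold lower in EPL than in ground cells, a log2 difference of -0.95 ± 0.08 (SE; adjusted p = 4.03e-10), and 3.51-fold higher in EpiSC than in EPL libraries, a log2 difference of 1.81 ± 0.11 (SE; adjusted p = 3.61e-12). The ratio of Phc1 to Phc2 was 2.69-fold higher in naive than in ground cells and 4.53-fold higher in EPL than in ground cells (exact p = 0.005, adjusted p = 0.0109 for each, exact permutation tests, n = 6 against 6). It was 9.02-fold lower in EpiSC than in EPL libraries, without overlap of the 3 libraries of each group. Phc1 held 87.6% ± 0.18 (SD, n = 3) of the summed PHC CPM per kb in A2 ground, 97.1% ± 0.25 in A2 EPL and 81% ± 4.3 in EpiSC libraries. Phc3 was at 20.6, 27.8 and 19.4 CPM in A2 ground, 17.8, 11.9 and 14.5 CPM in naive, 16, 19.99 and 18.2 CPM in EPL and 22.6, 19.7 and 30.9 CPM in EpiSC libraries. For Phc3 the D3 values were 19.5, 20.3 and 18.5 CPM in ground, 12.2, 7.92 and 12.2 CPM in naive and 17.6, 14.8 and 10.1 CPM in EPL libraries. Its replicates varied more than those of the other members, with a median coefficient of variation of 20.1% within groups, and ground and naive libraries were apart in each line. Phc3 fell by 0.74 ± 0.14 between ground and naive cells (adjusted p = 0.00011).

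Scmh1 and Scml2 encode SAM-domain proteins that associate with PRC1. Scml2 (ENSMUSG00000000037, chrX:161117193-161258213) was at 4.49, 4.86 and 4.89 CPM in A2 ground, 5.02, 3.58 and 4.05 CPM in naive, 2.54, 3.24 and 3.92 CPM in EPL and 31.7, 35.7 and 38.4 CPM in EpiSC libraries. In the D3 line Scml2 stood at 5.07, 4.88 and 3.83 CPM in ground, 2.40, 2.38 and 2.66 CPM in naive and 3.18, 2.69 and 2.91 CPM in EPL libraries. The EpiSC libraries stood far above all 18 others. Scml2 was 10.9-fold higher in EpiSC than in EPL libraries, a log2 difference of 3.45 ± 0.14 (SE; adjusted p = 5.68e-15), and 7.43-fold higher than in ground, a log2 difference of 2.89 ± 0.14 (SE; adjusted p = 1.94e-14). Among mESC groups its mean difference between naive and ground cells was -0.53 ± 0.11 (adjusted p = 0.000294). In D3 alone it was -0.89 ± 0.17 (SE; adjusted p = 0.000108), whereas in A2 alone it was -0.18 ± 0.15 (SE; adjusted p = 0.35), not called, and the A2 ground and naive libraries overlapped. The line interaction of -0.71 (adjusted p = 0.102) was not called.

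Scmh1 was at 11.8, 12 and 10.8 CPM in A2 ground, 18.6, 16.2 and 17.2 CPM in naive, 10.9, 10.1 and 11.1 CPM in EPL and 22.6, 21.7 and 23.6 CPM in EpiSC libraries. Scmh1 in D3 cells was at 11.3, 11.4 and 11.1 CPM in ground, 15.6, 13.3 and 13.1 CPM in naive and 8.43, 10.8 and 9.03 CPM in EPL libraries. Naive libraries were above ground and EPL libraries in both lines, and EpiSC libraries were above all. Scmh1 rose by 0.45 ± 0.07 (SE; adjusted p = 8.45e-06) between ground and naive cells, fell by 0.63 ± 0.07 from naive to EPL (adjusted p = 2.08e-07) and was higher in EpiSC than in EPL libraries by 1.08 ± 0.10 (SE; adjusted p = 1.92e-09). Of the 9 canonical genes, 6 were higher and 2 lower in EpiSC than in naive libraries (39.1% and 31.2% of all genes), again beside fibroblast and primitive endoderm sums that were raised in the same libraries.

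Variant PRC1 was represented by Rybp, Yaf2, Kdm2b and Bcor. Yaf2 (ENSMUSG00000022634, chr15:93284278-93336935) and its paralog Rybp link RING proteins to histone H2A and stimulate the ligase. Yaf2 was at 7.94, 6.91 and 7.39 CPM in A2 ground, 5.54, 6.42 and 5.31 CPM in naive, 8.68, 7.26 and 6.52 CPM in EPL and 23.6, 24.1 and 25.4 CPM in EpiSC libraries. D3 libraries held Yaf2 at 7.60, 6.46 and 6.90 CPM in ground, 5.89, 5.82 and 5.70 CPM in naive and 12.2, 13.5 and 14.2 CPM in EPL libraries. EpiSC libraries were above all others, and D3 EPL libraries were above every remaining library. Yaf2 fell by 0.32 ± 0.08 between ground and naive cells (adjusted p = 0.00238; -0.27 and not called in D3 alone), rose by 0.79 ± 0.08 (SE; adjusted p = 6.72e-08) from naive to EPL (0.38 in A2 and 1.20 in D3), and was 3.26-fold higher in EpiSC than in EPL libraries, a log2 difference of 1.70 ± 0.11 (SE; adjusted p = 5.21e-12). Rybp was called in none of the 7 comparisons of stages and lines, with group means from 89.1 to 106 CPM. With scaling to the total count, Rybp was called higher in EpiSC against ground, naive and EPL (0.28, 0.26 and 0.33). Yaf2 held 15.2% ± 0.67 (SD, n = 3) of the summed CPM per kb of the pair in A2 ground, 24.9% ± 2.8 in D3 EPL and 36.8% ± 0.68 in EpiSC libraries.

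Kdm2b, whose CXXC domain binds unmethylated CpG islands, was at 133, 123.4 and 130.3 CPM in A2 ground, 141, 119 and 137 CPM in naive, 169, 188 and 181 CPM in EPL and 127, 119 and 123.4 CPM in EpiSC libraries. The D3 levels of Kdm2b were 168, 171 and 159 CPM in ground, 177, 134 and 163 CPM in naive and 166, 157 and 150.3 CPM in EPL libraries. A2 EPL libraries were above all other A2 libraries, and D3 stages overlapped. Kdm2b fell by 0.54 ± 0.08 from EPL to EpiSC libraries (adjusted p = 5.6e-06), and its EpiSC difference from ground, -0.07 and not called, became 0.20 with scaling to the total count. Bcor, a co-repressor of the same complex, was at 44.9, 38.5 and 46.7 CPM in A2 ground, 74.6, 64.8 and 82.7 CPM in naive, 78.8, 94.3 and 91.6 CPM in EPL and 65.7, 64.1 and 67.2 CPM in EpiSC libraries. For Bcor the D3 values were 41.5, 45.3 and 34.6 CPM in ground, 67.8, 51.3 and 65.4 CPM in naive and 87.8, 88.1 and 69.4 CPM in EPL libraries. Ground libraries were below all naive, EPL and EpiSC libraries. Bcor was 2.02-fold higher in EPL than in ground cells, a log2 difference of 1.02 ± 0.09 (SE; adjusted p = 4.73e-10), while its partner gene Pcgf1 was 2.27-fold lower, a log2 difference of -1.18 ± 0.10 (SE; adjusted p = 9.75e-10).

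**Figure D4:**
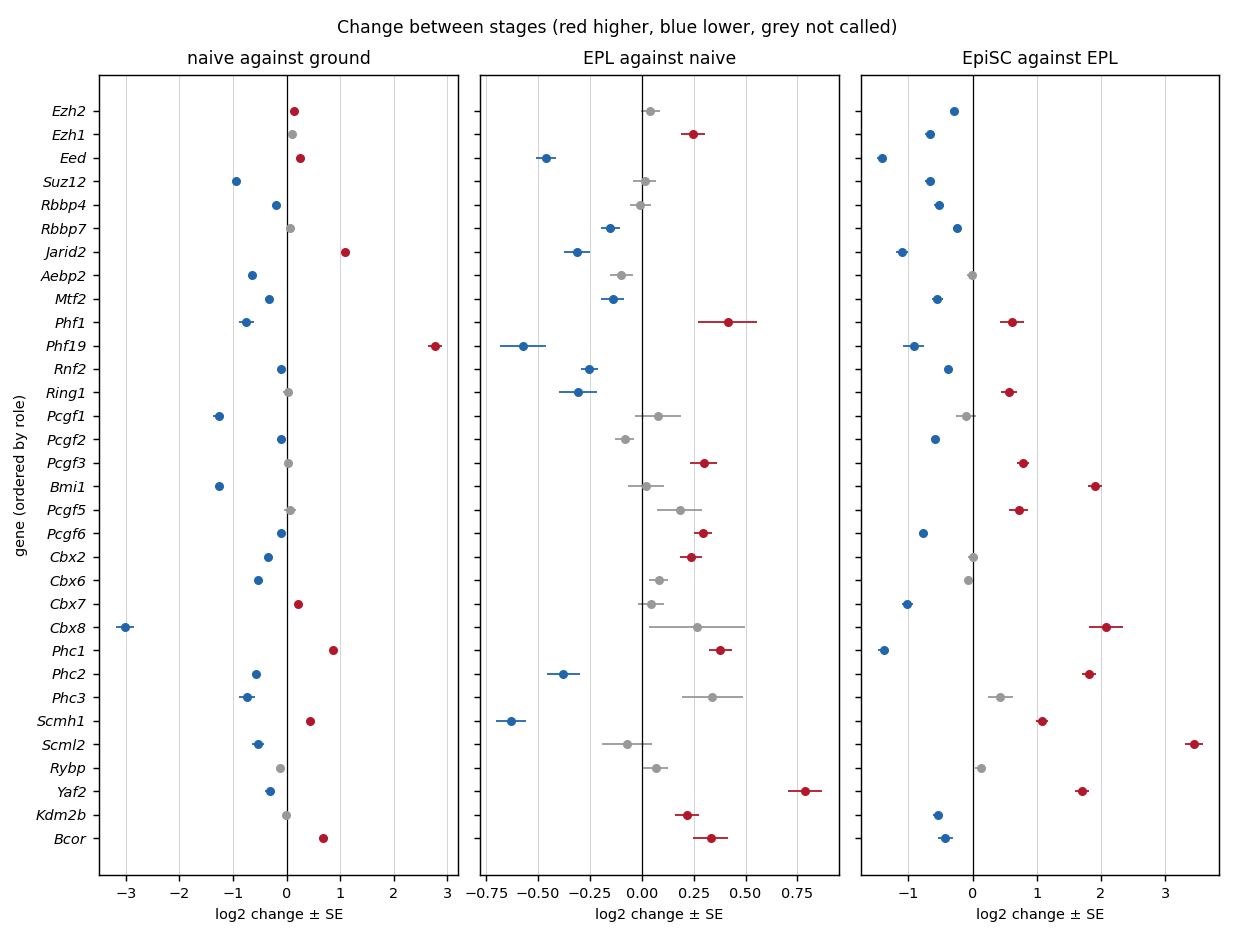
Log2 difference with its standard error (horizontal axes, scaled separately) for each Polycomb gene (vertical axis) in naive against ground, EPL against naive and EpiSC against EPL; red is called higher, blue lower and grey not called. Phf19 (2.76) and Cbx8 (-3.01) are the extremes of the first panel, no change reaches 1 in the second, and Scml2 (3.45) is the extreme of the third.

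Over the 16 paralog ratios tested in the 3 comparisons of stages within lines, 28 of 48 passed an adjusted p of 0.05, and the smallest p the 400 arrangements allow is 0.005. The ratio of Rnf2 to Ring1 and that of Pcgf3 to Pcgf5 passed in none of the 3. Between ground and naive cells, with 0.5 CPM added, the ratio of Mtf2 to Phf19 changed by -2.83 (log2), Cbx7 to Cbx8 by 2.42, Jarid2 to Aebp2 by 1.73 and Phc1 to Phc3 by 1.59. The order of these depends on the value added, since Cbx8 was below 1 CPM in naive libraries. With 2 CPM added the 4 were -2.28, 1.51, 1.72 and 1.52, and on unscaled counts with 1 count added they were -3.08, 3.13, 1.73 and 1.61. With 2 CPM added, 27 of the 48 tests passed. Between naive and EPL cells the ratio of Phc1 to Phc2 changed by 0.75 and that of Rybp to Yaf2 by -0.67, with 0.5 CPM added.

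Both lines were sampled at 3 stages, and D3 less A2, as the mean over these stages, gave 5 members higher and 12 lower, where 40.7% of all genes were called, 20% higher and 20.7% lower. The members called higher were Cbx2 (0.50), Yaf2 (0.25), Kdm2b (0.15), Pcgf6 (0.14) and Rbbp4 (0.13). The largest differences below A2 were those of Phf19 with -0.49 ± 0.11 (SE; adjusted p = 0.000751), Rnf2 with -0.45 ± 0.03 (SE; adjusted p = 2.82e-10) and Phc3 with -0.34 ± 0.12 (SE; adjusted p = 0.0226). Cbx2, with 0.50 ± 0.04 (SE; adjusted p = 4.94e-09), and Rnf2 were apart between the lines at every stage. Phf19 was called between the lines at EPL (-0.85) but not at ground (-0.40) or naive (-0.22), and Phc3 at no single stage (-0.21 at ground, -0.45 at naive and -0.37 at EPL). Among the members called higher, Yaf2 was called at EPL alone (0.83), Rbbp4 at naive (0.19) but not at ground (0.08) or EPL (0.11), and Kdm2b (0.37 and 0.26) and Pcgf6 (0.30 and 0.21) at ground and naive but not at EPL, where they had the opposite sign (-0.18 and -0.10). The Cbx2 difference was 0.25 at ground. The Phc3 call was lost without A2 ground replicate 2 (-0.28), A2 naive replicate 1 (-0.29), A2 EPL replicate 2 (-0.31) or D3 EPL replicate 3 (-0.27). Called differences of at least 2-fold between the lines numbered 0 among members and made up 3.75% of all genes. In naive against ground 6 members were called higher and 10 lower in both lines, where 19.7% of all genes were higher and 21% lower in both. In EPL against ground these were 5 and 12 (21.3% and 21.3% of all genes), and in EPL against naive 4 and 3 (10.9% and 10.1%). Calls in opposite directions in the lines numbered 0 among members in the 3 comparisons (0.235%, 0.989% and 1.12% of all genes).

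The test of line against stage called 2 members in naive against ground, 1 higher and 1 lower in D3 less A2, where 3.06% of all genes were called, 1.51% higher and 1.56% lower. For EPL against naive it called 3 higher and 4 lower, where 12.7% of all genes were called, 6.78% higher and 5.93% lower. For EPL against ground it called 3 and 4, where 13.3% were called, 7.25% higher and 6.06% lower. The Yaf2 difference of EPL from ground was 0.01 ± 0.12 in A2 and 0.93 ± 0.11 in D3, a difference of 0.92 ± 0.16 (SE; adjusted p = 0.000441). For Eed it was 0.03 ± 0.07 in A2 and -0.46 ± 0.07 in D3, a difference of -0.48 ± 0.10 (SE; adjusted p = 0.00181). For Kdm2b it was 0.47 ± 0.08 in A2 and -0.07 ± 0.08 in D3, a difference of -0.55 ± 0.12 (SE; adjusted p = 0.00286). Aebp2 fell in both lines between ground and naive cells, with log2 differences of -0.36 ± 0.08 in A2 and -0.92 ± 0.08 in D3, and the difference of -0.56 ± 0.11 (SE; adjusted p = 0.00547) was called. Without D3 naive replicate 2, the EPL against naive test gave 1 higher and 5 lower, since Aebp2 (0.33), Pcgf3 (0.31) and Rbbp7 (-0.26) were no longer called and Jarid2 (-0.43) and Mtf2 (-0.34) were. The summed formative and primed genes were also higher in D3 EPL (1488 to 1618 CPM) than in A2 EPL libraries (837 to 973 CPM), and the part of this in the line differences was not tested.

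The other genes of the pathway were 27 Polycomb partners outside the 32 and 19 genes of opposing enzymes, and all were tested. Among the partners 9 rose and 10 fell in naive against ground, 14 rose and 5 fell in EPL against naive, and 11 rose and 14 fell in EpiSC against EPL. The shares of all genes that were higher and lower in these comparisons were 31.7% and 31.8%, 27.1% and 24.1%, and 39.1% and 31.3%. Ezhip, an inhibitor of EZH2, stood at 1.16 ± 0.43 CPM (SD, n = 3) in A2 ground and 19.2 ± 1.3 CPM in EpiSC libraries, a log2 difference of 4.06 ± 0.18 (SE; adjusted p = 7.64e-15). Epop, a PRC2 accessory gene, was lower in EpiSC than in EPL libraries, with a log2 difference of -1.88 ± 0.11 (SE; adjusted p = 7.53e-13). Wdr5, shared by variant PRC1 and by the opposing MLL complexes, was lower in EPL than in ground cells, with a log2 difference of -1.19 ± 0.05 (SE; adjusted p = 6.68e-16). Fbrsl1, a relative of the AUTS2 subunit of PRC1, fell by 1.55 ± 0.07 there (adjusted p = 6.99e-15), and Sfmbt2, a Polycomb group gene with MBT repeats, rose by 1.58 ± 0.13 (SE; adjusted p = 5.19e-10). The Sfmbt2 rise differed between the lines, with 2.27 ± 0.20 in A2 and 0.90 ± 0.18 in D3 and an interaction of -1.37 ± 0.27 (SE; adjusted p = 0.00132). Of the 19 opposing genes, 2 rose and 6 fell in naive against ground, where 63.5% of all genes were called. The largest falls were those of Ogt with -0.55 ± 0.08 (SE; adjusted p = 1.5e-06) and Kmt2b with -0.44 ± 0.09 (SE; adjusted p = 0.000166), and the Ogt difference was -0.33 in A2 alone. In EpiSC against EPL, where 70.4% of all genes were called, 6 rose and 7 fell, among them the demethylase gene Kdm6a with -0.73 ± 0.09 (SE; adjusted p = 4.93e-07).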

How the data were processed

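RNA was sequenced from 21 libraries, 3 in each of 7 line-and-stage groups, with an Illumina TruSeq RNA kit, per the labels' protocols; such libraries do not record strand. The authors deposited raw counts per Ensembl gene and library. HISAT2, SAMtools and featureCounts with the build GRCm38 are named in the submitters' processing notes. Their versions and settings, and strand handling, are not given by any source used here. Members and gene lists were chosen with earlier results of these data known. All 39396 identifiers matched GENCODE M21, the source of coordinates and exon lengths, and promoters came from RefSeq.

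The filter filterByExpr (minimum count 10, minimum total 15) kept 16575 genes. Counts were scaled with TMM, and edgeR 4.0.16 (R 4.3.3, quasi-likelihood F test) took all 21 libraries in 1 fit of 7 group means. A gene was called at a Benjamini-Hochberg adjusted p below 0.05, the adjustment covering every gene tested. Naive, EPL and ground were compared with equal weight on A2 and D3, EpiSC within A2, D3 with A2 as the mean over stages, and line with stage by an interaction. Exact two-sided permutation tests of log2 ratios of paralogs, and of Jarid2 to Aebp2 (0.5 CPM added), permuted labels within lines, adjusted over 48 tests. The members given library by library were, in each comparison, the 6 called with the largest log2 difference and at least 5 CPM in the higher group, with Cbx7 and Cbx8 added after their values were seen. Up to 4 other pathway genes per list were eligible by the same limits, and some of these are named. Alternatives were RLE size factors, scaling to the total count, no filter, a filter of 1 CPM and 10 counts in 3 libraries, DESeq2 1.42.0, a replicate block, single lines and stages, ratios with 2 CPM added or from unscaled counts with 1 count added, and leaving out each library. The fitting code was tested on simulated data. Depth, from 15320599 to 23490527 counts, leaves Cbx8 as the member with the fewest counts.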

Additional observations from a re-analysis of the deposited data

Results flagged for a closer look

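A few members changed differently between stages in D3 than in A2 by the interaction test (edgeR, adjusted p below 0.05), each value being the D3 log2 difference less the A2 one. Between naive and ground cells these were Aebp2 (-0.56) and Cbx2 (0.40). Aebp2 fell in both lines and further in D3, and Cbx2 fell in A2 (-0.55) and was not called in D3 (-0.14). Cbx2 passed with an adjusted p of 0.0421 and was lost in 9 of the fits that left out a library.

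Between EPL and naive cells the changes differed for Yaf2 (0.82), Aebp2 (0.40), Pcgf3 (0.39), Eed (-0.50), Kdm2b (-0.44), Rbbp7 (-0.32) and Pcgf6 (-0.31). Yaf2, a subunit of variant PRC1, rose in both lines and more in D3 (1.20 against 0.38). Eed, the PRC2 core subunit that reads the methyl mark, fell in both and further in D3 (-0.72 against -0.21). Kdm2b rose in A2 (0.44) and was not called in D3.

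Between EPL and ground cells they differed for Yaf2 (0.92), Cbx6 (0.39), Cbx2 (0.37), Mtf2 (-0.38), Pcgf6 (-0.39), Eed (-0.48) and Kdm2b (-0.55). Leaving out single libraries cost the call for Mtf2 in 3 fits (-0.36 to -0.34) and Cbx2 in 6 (0.29 to 0.37) here, and for Aebp2 in 6 (0.33 to 0.39), Pcgf3 in 9 (0.31 to 0.43) and Rbbp7 in 5 (-0.32 to -0.26) between EPL and naive cells. Pcgf6 between EPL and naive cells was lost without A2 EPL replicate 2 (-0.28). The ground and naive libraries enter several of these contrasts, so the lists are not independent of each other.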

How the results depend on the processing

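Of 320 values for members, 313 kept their side of the threshold with DESeq2 and 315 with RLE factors. The counts were 318 with the stricter filter, 303 with no filter and 293 with scaling to the total count. None of the values counted here as kept changed sign if it was called in either fit. A change of sign in a value called in neither fit was not counted. The series' own design text calls the samples paired without saying how. Replicate numbers did not pair the libraries: over 63 same-numbered pairs the median correlation of deviations was -0.02, and 5 of 21 libraries were closest to their own number. With the replicate block, 317 values kept their call and 3 lost it (Mtf2 in EPL against naive with -0.14, Ezh2 in EpiSC against naive with -0.15 and the Pcgf3 interaction with 0.39). Scaling to the total count reversed Ezh2 (0.22), Rbbp7 (0.032) and Kdm2b (0.20) in EpiSC against ground and Ezh2 (0.033) in EpiSC against naive. Total-count scaling and no filter each left 1 member in the naive against ground interaction, with 0 higher in place of 1. Over all genes, 200 were higher and 283 lower with total-count scaling, in place of 250 and 258. With no filter they were 426 and 420 of 28040 tested. DESeq2 gave 7 lower members in the EPL against naive interaction in place of 4, where 1283 of 15286 genes were lower in place of 983 of 16575. In A2 alone EPL against naive called 11 members in place of 18, with 5 lower in place of 9. Of the 16575 genes tested, 2778 were then higher and 2662 lower, in place of 4493 and 3996. In D3 alone EPL against ground called 7 higher in place of 12, where 4880 of all genes were higher in place of 5485. D3 against A2 called 6 members at ground, 11 at naive and 10 at EPL in place of 17. It called 3 higher at ground and 2 at EPL in place of 5, and 3 lower at ground and 6 at naive in place of 12. Over all genes the counts were also smaller at single stages, with 1513 higher and 1812 lower at ground. They were 2409 and 2550 at naive and 2590 and 2290 at EPL, in place of 3313 and 3437. In D3 alone the sign turned for Pcgf2 in naive against ground (0.0042), Pcgf6 (-0.0084) and Kdm2b (-0.072) in EPL against ground and Kdm2b (-0.0027) in EPL against naive. In A2 alone it turned for Eed in EPL against ground (0.026) and Rbbp7 in EPL against naive (0.0055). Between D3 and A2 it turned for Aebp2 (0.066) and Yaf2 (-0.089) at ground and Pcgf6 (-0.10) and Kdm2b (-0.18) at EPL. For these values taken in 1 line or stage, the cause was not tested. Leaving out each library reversed 0 of the values called in either fit, took 121 below the call and brought 25 over it. The EPL against naive interaction then called 4 to 7 members, 1 to 3 of them higher, and the naive against ground interaction 1 to 2, with 0 to 1 higher. Without a replicate number, 0 to 0 of the ratio tests passed in place of 28, since fewer arrangements remain. Without EpiSC replicate 3 the Ezh2 difference from naive was -0.08, without A2 ground replicate 2 the Phf1 difference between EPL and ground was -0.21, and Pcgf2 in naive against ground was -0.06 without A2 ground replicate 1 and -0.07 without D3 naive replicate 3. Counts limit Cbx8 and, by its spread, Phc3.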
